A study of Mus musculus with 25 samples.

Results

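Deposited cluster 10 held 182 of the 30958 cells of a single-cell RNA sequencing series on the injured mouse spinal cord, and 182 of the 17198 cells of clusters 8 and above, the infiltrating clusters. Its cells were found by the authors' cluster number, joined by barcode to the raw counts of each library. The markers set for it were Mki67, a gene of dividing cells, and Elane, Prtn3, Mpo and Ctsg, the genes of neutrophil elastase, proteinase 3, myeloperoxidase and cathepsin G. The data bore out the division marker in most cells and the granule genes in few: 150 of 182 cells (82.4%) had an Mki67 UMI (a uniquely tagged transcript), and 29 of 182 (15.9%, 95% Wilson interval 11.3 to 21.9%) had at least 5 UMIs of the 4 granule genes together. The name of dividing granule-gene progenitors therefore described a minority of the cells, and the group is called cluster 10 here.

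The series comprised 25 libraries made by droplet 3' sequencing, each from 1 to 3 mice. Tissue was the lesion site at 1, 2, 3, 10 or 21 days (D1 to D21) after a spinal cord injury, or came from controls with laminectomy alone, and myeloid cells were enriched by flow sorting. In 12 libraries, the mice were labelled Cx3cr1CreERT2 and all YFP+ cells were taken (called mixed here). In 13 libraries they were Cx3cr1CreERT2:R26tdTomato, and RFP-/YFP+ (infiltrating) or RFP+/YFP+ (resident) cells were taken. The YFP reporter follows the Cx3cr1 gene, which microglia and monocyte-derived cells both use, while RFP comes from the R26tdTomato allele. Strain and sort are divided in the same way. One day 3 library has a title that says infiltrating and a sort label that says resident. It is called D3 conflict 1, entered no test as a main sample, and is given beside the others in descriptions. Libraries held 155 to 3800 cells. No animal ages were used. The cell annotation gives each library an SLX number, called its pool here; there were 7 pools, and 5 of them held cluster 10 cells. Across libraries 127 barcodes recurred, among them that of 1 cluster 10 cell.

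Some libraries stood apart. D3 mixed 3 held 107 of the 182 cells (58.8%), while D3 mixed 1 and D3 mixed 2, from another pool, had 0 cells in clusters 8 and above among 253 and 319 cells. D2 mixed 1 had 54 such cells of 600, and D2 mixed 2 had 728 of 754. The counts and bounds that D3 mixed 3 enters are given without it too where it moves them most.

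The granule genes code for contents of azurophil granules, the first granules a developing neutrophil makes. They are transcribed in dividing granulocyte-monocyte progenitors and promyelocytes, mainly in bone marrow, and are shut down as the cells mature, while the proteins stay stored. Genes of specific granules (Ltf, Camp, Ngp) follow at a later stage. Monocytes arise from the same progenitors, enter injured spinal cord from blood and become macrophages there. Dividing cells of any lineage express a common programme, with histone and replication genes in S phase and genes of the spindle and of cytokinesis in G2 and M.

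The 4 granule genes lie at chr10:79886247-79888215 (Elane, plus strand), chr10:79874476-79883174 (Prtn3, plus strand), chr11:87793581-87804413 (Mpo, plus strand) and chr14:56099881-56102574 (Ctsg, minus strand) in GRCm38, by the GENCODE gene models. Elane and Prtn3 are neighbours. A stretch of 30 bases of each upstream region is shown because the 4 genes moved together across libraries and each upstream region held GAGGAA, the core letters of sites for the myeloid factor PU.1, printed in capitals. The stretches are 5′ to 3′ on the gene's strand, from RefSeq in GRCm38.p6, at chr10:79886215-79886244 (plus), chr10:79879560-79879589 (plus), chr11:87793537-87793566 (plus) and chr14:56102773-56102802 (minus).
Elane: tcgtgtcccaggGAGGAAgtagggctgtgg
Prtn3: ccaaactggaagGAGGAAgtgggacccaca
Mpo: GAGGAAggggctgtggagagagaGAGGAAg
Ctsg: ctcccagaaggaGAGGAAgaaaaggaagta
GAGGAA was searched on both strands in the 250 bases before the RefSeq start site, which lies downstream of the GENCODE start for Elane, Mpo and Prtn3 (for Prtn3 inside a longer GENCODE model), and occurred in 4 of 4 granule genes and in 23.3% of 32851 promoters. Its matches began 85 bases before the RefSeq start in Elane and 95 before it in Prtn3. A MYB-type motif (AACNG) was also in all 4, and in 74.2% of promoters. A C/EBP-type motif (TTGCNNAA) was in 0 of 4 and in 9.56% of promoters. TGTGGT, a RUNX-type motif, was in Ctsg alone of the 4 and in 14% of promoters. GAGGAA was not particular to the granule genes, since Top2a had 2 matches and Mki67 had 0. CCAAT, a motif of many cell cycle promoters found in 33.8% of promoters, had 3 matches in Mki67, 6 in Top2a, 1 in Elane and 0 in Prtn3, Mpo and Ctsg. These are letter matches, not measured binding.

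Cluster 10 was found in 14 libraries, all after injury. The 11 libraries without it included the controls, which had 0 cells in clusters 8 and above, so they hold no infiltrating cells to compare. As a share of the cells of clusters 8 and above, it was small in the first days, with 5 of 1810 cells in D1 infiltrating 1 (0.276%), 0 of 2758 in D1 infiltrating 2 (a count of 0 allows up to 0.109%), 14 of 2896 in D3 infiltrating 1 (0.483%) and 17 of 3776 in D3 conflict 1 (0.450%). D3 mixed 3 was higher, with 107 of 3064 (3.49%, Wilson interval 2.90 to 4.2%), and D2 mixed 1 had 1 of 54 (1.85%, 0.328 to 9.77%). The highest shares were those of 3 late libraries, of 41 to 73 such cells each: 8 of 41 in D10 mixed 1 (19.5%, 10.2 to 34.0%), 12 of 57 in D10 mixed 2 (21.1%, 12.5 to 33.3%) and 9 of 73 in D21 infiltrating 1 (12.3%, 6.62 to 21.8%). Not every late library was high, since D10 infiltrating 1 had 3 of 538 (0.558%) and D10 infiltrating 2 had 2 of 77 (2.60%). The intervals cover counting error only.

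Over infiltrating and mixed libraries with at least 50 cells in clusters 8 and above, the share was 9.13% ± 9.46 (SD, n = 4) at D10 and D21 and 0.910% ± 1.30 (SD, n = 7) at D1 to D3. The difference of 8.22 percentage points had an exact 2-sided permutation p of 0.0303, and 0.121 after Benjamini-Hochberg adjustment over 4 comparisons of shares, so it did not pass. With all cells of the library as the denominator, the difference was 1.56 points (exact permutation p = 0.124). The other 3 comparisons of shares had adjusted exact permutation p-values of 0.271 to 0.476: D2 and D3 against D1 was 1.22% ± 1.46 (n = 5) against 0.138% ± 0.195 (n = 2). Infiltrating against resident libraries was 1.18% ± 2.07 (n = 7) against 0.0375% ± 0.0571 (n = 5) of all cells, and male against female libraries was 5.73% ± 8.01 (n = 7) against 0.703% ± 0.786 (n = 4). One of these 4, D2 infiltrating 1, is labelled female but carries the code of male libraries in the cell annotation, and without it the difference was 4.83 points. The p-values measure the spread between these libraries, which pooled different numbers of mice.

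**Figure D1:**
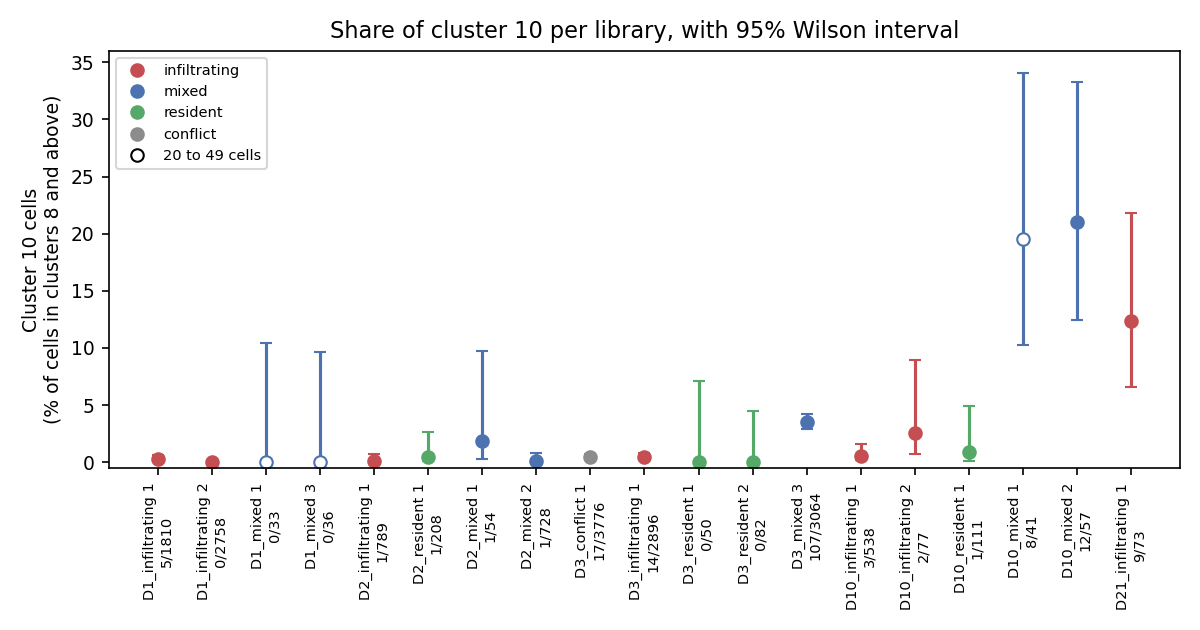
Cluster 10 as a percentage of the cells of clusters 8 and above in each library, by day, with 95% Wilson intervals, for libraries with at least 20 such cells. D10 mixed 1, D10 mixed 2 and D21 infiltrating 1 sit at 12.3 to 21.1%, and D3 mixed 3 at 3.49%, with the other libraries at or below 2.60%.

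Cell division was what the cells of cluster 10 had in common. With each cell thinned to 1500 UMIs, the S and G2/M gene lists gave a median of 18 UMIs in cluster 10 (quartiles 12 and 26), 2 in the other cells of clusters 8 and above and 19 in cluster 6, one of the microglia clusters. At least 10 such UMIs were found in 151 of 182 cluster 10 cells (83.0%) and in 114 of 16545 other cells (0.689%). That cutoff replaced a planned 5, which 177 cluster 10 cells (97.3%) and 2202 of the other cells (13.3%) reached. The median by library ran from 14 in D1 infiltrating 1 and 15 in D3 mixed 3 to 29 in D21 infiltrating 1 and 34 in D3 infiltrating 1, so each of the 7 libraries with at least 5 members showed it. A cluster may rest on the genes described here, so these values are given as a description with no test.

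Cluster 10 did not hold all dividing infiltrating cells. Of the 265 cells of clusters 8 and above with at least 10 thinned cycle UMIs, 151 (57.0%) were in cluster 10, 78 in cluster 15 and 17 in cluster 16. The division differed by library: in D3 infiltrating 1, cluster 10 had 14 of 62 and cluster 15 had 40, in D3 conflict 1 cluster 10 had 15 of 44, and in D3 mixed 3 it had 80 of 93. At D10 and D21, cluster 10 held 7 of 8, 12 of 13 and 9 of 12 in D10 mixed 1, D10 mixed 2 and D21 infiltrating 1. These counts rest on the cutoff of 10. At the planned 5, 177 cells of cluster 10 and 2202 of the other infiltrating clusters counted, so most such cells lay outside cluster 10.

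Set against the other infiltrating cells of the same library, cluster 10 was higher above all in cell cycle genes. Values here are log2 ratios of CPM, a gene's UMIs scaled to the library's summed UMIs in the same cells, with 5 CPM added to both sides, in the 7 libraries with at least 5 members. The genes compared had a median over libraries of at least 20 CPM on either side. Of 5943 genes compared, 175 (2.94%) were at least 2-fold higher in all 7 libraries, and 136 of these 175 (77.7%) belonged to the cell cycle lists or histone genes. The highest medians were Hist1h1b, a linker histone of S phase, at 6.43 (0.96 to 7.94 over libraries), and Ube2c, which feeds mitotic proteins to the proteasome, at 5.80 (4.91 to 6.59). Next came Birc5 (survivin, of the chromosomal passenger complex) at 5.78, the histone gene Hist1h2ae at 5.74, the spindle gene Nusap1 at 5.65, Hist1h2ap at 5.59, Pclaf, which binds the replication clamp PCNA, at 5.51, Prc1, which organises the central spindle, at 5.46, and Top2a, the topoisomerase of dividing cells, at 5.45 (4.14 to 6.52). Cenpf, Ccnb2, Ccna2, Hmmr, Cenpe and Cdc20 followed, with medians of 4.84 to 5.24.

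Outside the cell cycle lists, 39 genes were 2-fold higher in every library. The highest was Mns1, known from meiosis and cilia, with a median of 3.12 (1.91 to 4.0). Bora, an activator of Aurora A and Plk1, had 2.67, the kinesin gene Kifc1 2.62, and Dbf4, the partner of the Cdc7 kinase that fires replication origins, 2.58. Cmc2, a mitochondrial gene, had 2.57 and Eme1, of a DNA junction nuclease, 2.53. Kif18a, Cip2a and Nucks1 were among the 15 highest of this kind. Bora and Kif18a stood at 11.9 CPM in D1 infiltrating 1, a single UMI among the 83921 of its cluster 10 cells. With 5 CPM added, a single UMI there passes 2-fold over a gene near 0. Without that library, 55 genes outside the lists were 2-fold higher in every library. The lists were written with earlier results of these data known, and genes they missed count as outside here.

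Few genes were lower in every library. Of the 5943 genes, 13 (0.219%) were at least 2-fold lower in all 7 libraries: Pla2g7 at −4.55 in the median library, Atf3 at −3.56, Sgk1, Clec4a3, Slc11a1, Ier3, Grina, Ninj1, Slfn5, Igf1, Tmem51, Csf3r and Sqstm1. Atf3 and Ier3 are immediate early genes, and Slc11a1 is a metal transporter of phagosomes. Beside Pla2g7, the 10 lowest medians over all 7 libraries were those of Chil3 at −5.01, Gpnmb at −4.54, Spp1 (osteopontin) at −4.34, the interferon-induced Ifit3 at −4.27, the chemokine gene Ccl5 at −4.15, Maf at −4.10, the lipid transporter Abca1 at −3.79, Apoe at −3.64 and Cd63 at −3.59. These medians hide wide ranges. Apoe ran from 0.09 in D1 infiltrating 1 to −12.58 in D10 mixed 1, Gpnmb from 0.02 in D1 infiltrating 1 to −7.32 in D10 mixed 1, and Chil3 from −0.16 in D21 infiltrating 1 to −7.46 in D3 infiltrating 1. In D3 mixed 3, 9 of these 10 genes, all but Chil3, lay between −0.43 and −1.33. Without D3 mixed 3 the number lower in every library was 116. Against other cells with at least 5 thinned cycle UMIs, in the 6 libraries with enough of them, 116 genes were higher in all and 6 lower, and the higher ones outside the cycle lists numbered 17.

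**Figure D2:**
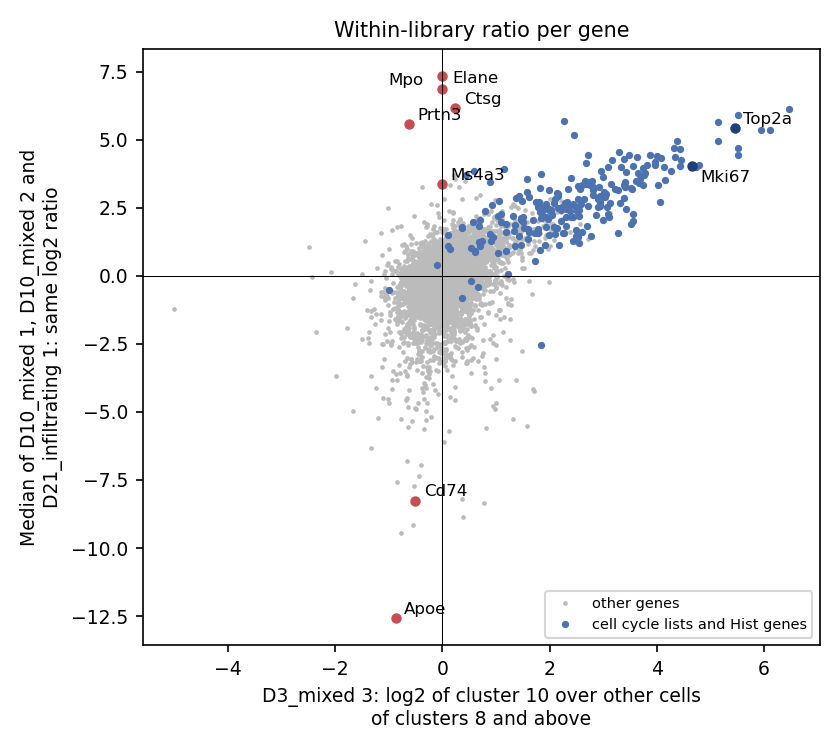
Each point is a gene, with the log2 ratio of cluster 10 to the other cells of clusters 8 and above in D3 mixed 3 (horizontal) and its median over D10 mixed 1, D10 mixed 2 and D21 infiltrating 1 (vertical). Cell cycle genes such as Top2a and Mki67 (5.45 and 4.65 in D3 mixed 3) are high on both axes, while Elane, at 0 in D3 mixed 3, and Apoe, at −0.87 there, lie far above and far below 0 on the late axis alone.

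The granule genes divided the cluster by library and day. Elane, a serine protease of azurophil granules, was at 657.3, 2312 and 1164 CPM in the summed cluster 10 cells of D10 mixed 1, D10 mixed 2 and D21 infiltrating 1, at 0 in D3 infiltrating 1 and D3 mixed 3, at 192 in D3 conflict 1 and at 1179.7 in D1 infiltrating 1. The late values and that of D1 stood above both tested D3 libraries with no overlap. The D1 and D3 conflict values each came from 1 cell. In the late libraries, 5 of 8, 8 of 12 and 7 of 9 cells had an Elane UMI.

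Prtn3, a second protease of the same granules, was at 2451, 5790.4 and 2971 CPM late, at 7.24 and 2.64 in D3 infiltrating 1 and D3 mixed 3, at 281 in D3 conflict 1 and at 1442 in D1 infiltrating 1. Mpo, the peroxidase that makes hypochlorous acid, was at 799, 1197 and 942 CPM late, at 0 in both tested D3 libraries, at 39.0 in D3 conflict 1 and at 2085 in D1 infiltrating 1. Ctsg, another granule protease, was at 633, 1286 and 622 CPM late, at 0 and 2.64 in D3 infiltrating 1 and D3 mixed 3, at 52.0 in D3 conflict 1 and at 619.6 in D1 infiltrating 1. The 4 genes thus had the same order of groups, late over D3. In the other cells of clusters 8 and above of these 7 libraries, Elane reached at most 14.9 CPM and Prtn3 at most 117.

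Counted by cell, the same division appeared. Of the cells at D10 and D21, 26 of 35 (74.3%) had at least 5 granule UMIs, and of those at D1 to D3, 3 of 147 (2.04%). Late, these were 7 of 8 cells in D10 mixed 1, 9 of 12 in D10 mixed 2, 8 of 9 in D21 infiltrating 1, 2 of 3 in D10 infiltrating 1, 0 of 2 in D10 infiltrating 2 and 0 of 1 in D10 resident 1. Early, they were 1 of 5 in D1 infiltrating 1, 1 of 1 in D2 infiltrating 1 (8 UMIs, all of Prtn3), 0 of 1 in each of D2 resident 1, D2 mixed 1 and D2 mixed 2, 1 of 17 in D3 conflict 1, 0 of 14 in D3 infiltrating 1 and 0 of 107 in D3 mixed 3, where 6 cells had a single UMI. Without D3 mixed 3, 29 of 75 cells (38.7%) had at least 5.

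Over libraries with at least 5 members, the share with at least 5 granule UMIs was 83.8% ± 7.65 (SD, n = 3) late and 6.67% ± 11.5 (SD, n = 3) early, without overlap. The exact 2-sided permutation p was 0.1, the smallest that 3 against 3 allows, so this design could not reach 0.05. With D3 conflict 1 added to the early side, the exact permutation p was 0.0286. Among these libraries 1 pool held both late and early ones, and there D21 infiltrating 1 had 8 of 9 and D3 mixed 3 had 0 of 107. Another pool held smaller ones, with 2 of 3 in D10 infiltrating 1, 0 of 1 in D10 resident 1 and 0 of 1 in D2 resident 1.

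The threshold of 5 UMIs was chosen after the counts were seen, and it fell in a sparse range. Of the 182 cells, 143 had 0 granule UMIs and 10 had 1 to 4, of which the highest had 2, while 4 had 5 to 9 and 25 had at least 10. The most was 1125 UMIs in 1 cell, and the top 15 cells held 94.4% of all granule UMIs of the cluster. All 4 genes were found together in 19 cells, and 3 or 4 of them in 23. The 2 D10 infiltrating 1 cells past the threshold were weaker cases, since 20 of that library's 21 granule UMIs were Prtn3.

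**Figure D3:**
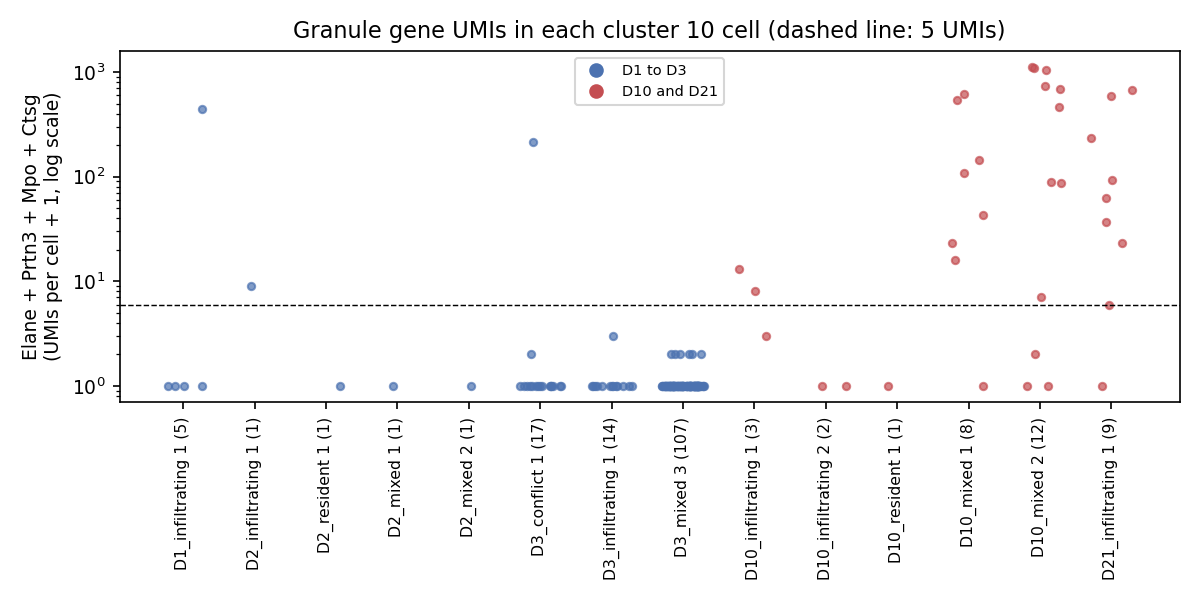
Summed UMIs of Elane, Prtn3, Mpo and Ctsg in each cluster 10 cell by library, on a log scale with 1 added. The cells of D10 mixed 1, D10 mixed 2 and D21 infiltrating 1 lie mostly above 5 UMIs and up to 1125, and all 107 cells of D3 mixed 3 lie at 0 or 1.

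Granule transcripts were more frequent in cluster 10 than in other cells. The shares of other cells were pooled over all libraries. D10 mixed 1, D10 mixed 2 and D21 infiltrating 1 held 41, 57 and 73 of the 17198 cells of clusters 8 and above, cluster 10 included. The pooled shares therefore do not give the level of free RNA in those 3 libraries, and no empty droplets were analysed here. Within them, the log2 ratio of Elane to the other infiltrating cells was 7.05, 6.86 and 6.09. With cells thinned to 1500 UMIs, an Elane UMI was in 7.69% of cluster 10 cells (0 of 107 in D3 mixed 3, 0 of 14 in D3 infiltrating 1, and 3 of 8, 6 of 12 and 3 of 9 in D10 mixed 1, D10 mixed 2 and D21 infiltrating 1), 0.0181% of the other cells of clusters 8 and above and 0.0559% of microglia (clusters 1 and 3 to 6). Unthinned, the values were 12.1%, 0.141% and 0.119%, at median depths of 14006 UMIs in cluster 10, 9017.5 in the other infiltrating cells and 3282 in microglia. Prtn3 was more widely found, in 13.2% of thinned cluster 10 cells, 1.56% of other infiltrating cells and 0.131% of microglia. At least 5 granule UMIs were seen in 62 of 17016 other infiltrating cells (0.364%) and in 0 of 11769 microglia. Of those outside cluster 10, only 1 had UMIs of all 4 genes, a cell of cluster 13 in D10 mixed 2 with 45 granule UMIs.

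Granule transcripts and division met in the same cells. Of the 29 cells with at least 5 granule UMIs, 26 had an Mki67 UMI and 27 had at least 10 thinned cycle UMIs, with a median of 26. Of the other 153 members, 124 had an Mki67 UMI and 124 had at least 10 cycle UMIs, with a median of 17. That median rested on D3 mixed 3 (15). Without that library both medians were 26, and at D10 and D21 the order was turned, with 24.5 in the 26 granule-bearing cells and 37 in the 9 others. The granule-bearing cells were also the deeper ones, with a median of 36204 UMIs against 12708. Late in the series the medians were 38048 in cells with at least 5 granule UMIs and 20663 in those with fewer. No doublet caller was run, and the part of cell depth or of doublets in these values was not tested.

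**Figure D4:**
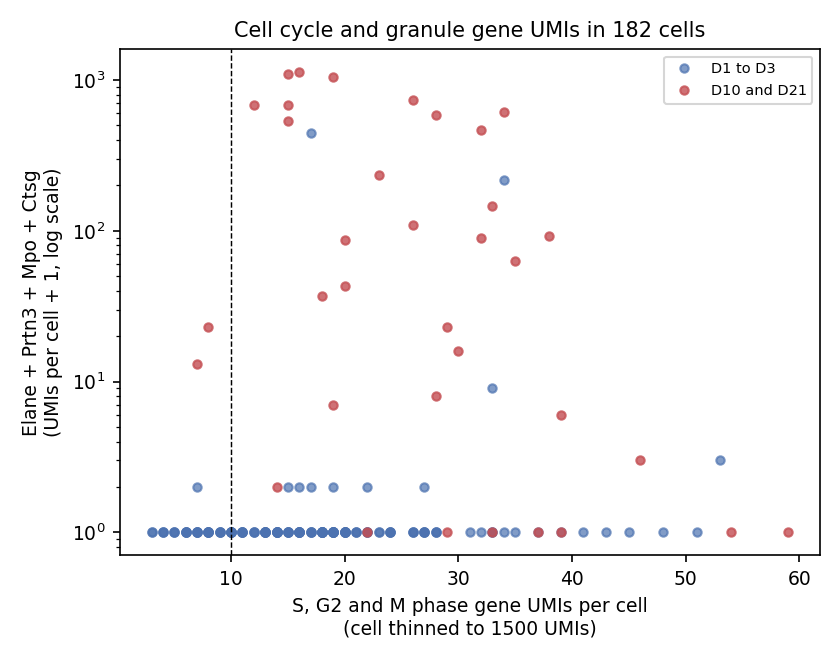
Granule UMIs of each cluster 10 cell (vertical, log scale with 1 added) against its thinned S and G2/M UMIs (horizontal), coloured by early or late library. The dashed line marks 10 cycle UMIs. Of the 29 cells at or past 5 granule UMIs, 27 have at least 10 cycle UMIs, and the 153 cells below it span the cycle range too.

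Within each library, cluster 10 was compared with the other infiltrating cells over the azurophil, progenitor and macrophage lists. The azurophil and progenitor lists both hold the 4 granule genes, so their counts restate those values in part. In D10 mixed 1, where 18.4% of genes were at least 2-fold higher than in the library's other infiltrating cells and 17.1% lower, 5 of 8 azurophil genes and 7 of 10 progenitor markers were higher, and 11 of 12 macrophage markers were lower. In D10 mixed 2 (19.8% higher, 17.4% lower), the counts were 5 of 8, 6 of 10 and 9 of 11. In D21 infiltrating 1 (15.9% higher, 15.9% lower), they were 5 of 8, 6 of 9 and 12 of 13. All 7 MHC class II presentation genes were lower in each of these 3. The comparison cells were few, 33, 45 and 64.

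The early libraries gave other counts. In D1 infiltrating 1 (20.8% higher, 16.4% lower), 5 of 8 azurophil genes and 8 of 10 progenitor markers were higher, with 4 of 12 macrophage markers higher and 4 lower. In D3 conflict 1 (9.9% higher, 10.5% lower), 4 of 8 and 6 of 8 were higher and 9 of 13 macrophage markers lower. In both, 1 cell carried nearly all the granule UMIs. In D3 infiltrating 1 (7.94% higher, 12.5% lower), 0 of 3 azurophil genes and 1 of 5 progenitor markers were higher, and 7 of 13 macrophage markers were lower. In D3 mixed 3 (7.38% higher, 1.26% lower), 1 of 3 and 0 of 2 were higher, and 1 of 13 macrophage markers was lower. The G2/M list did not follow this division, with 46 of 50, 49 of 51, 50 of 53, 46 of 48, 48 of 51, 47 of 49 and 52 of 52 genes higher from D1 infiltrating 1 to D21 infiltrating 1.

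The summed levels of the lists did not all divide the libraries in the same way. The azurophil list summed to 5612 to 11982 CPM in the late libraries, and D1 infiltrating 1, at 6363, lay within that range. D3 mixed 3 was at 3126, D3 conflict 1 at 1740 and D3 infiltrating 1 at 934. Most of the D3 mixed 3 sum came from the list members Cd63 (1599), Srgn (1169) and Ctsc (349). In D3 infiltrating 1 it came from Ctsc (674) and Srgn (196). The 4 granule genes alone summed to 5.29 CPM in D3 mixed 3, 7.24 in D3 infiltrating 1 and 564 in D3 conflict 1. In D10 mixed 1, D10 mixed 2 and D21 infiltrating 1 they summed to 4540, 10585 and 5699. Macrophage markers summed to 90511 CPM in the cluster 10 cells of D3 mixed 3, to 7793 to 10367 in D1 infiltrating 1, D3 conflict 1 and D3 infiltrating 1, and to 1095 to 1258 in the late libraries. MHC class II genes, which present antigen, summed to 1057 CPM in D3 mixed 3, 21183 to 32283 in the other early libraries and 203 to 635 late. Monocyte markers summed to 336 CPM in D3 mixed 3, 1065 to 1704 in the others and 4781 to 7181 late. In D3 mixed 3 the other infiltrating cells were also high in macrophage markers (129617 CPM) and low in MHC class II genes (1497 CPM), so there cluster 10 had the library's own profile. In the late libraries it did not, since the other cells had 39158 to 41054 CPM of macrophage markers and 25420 to 49423 of MHC class II genes.

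**Figure D5:**
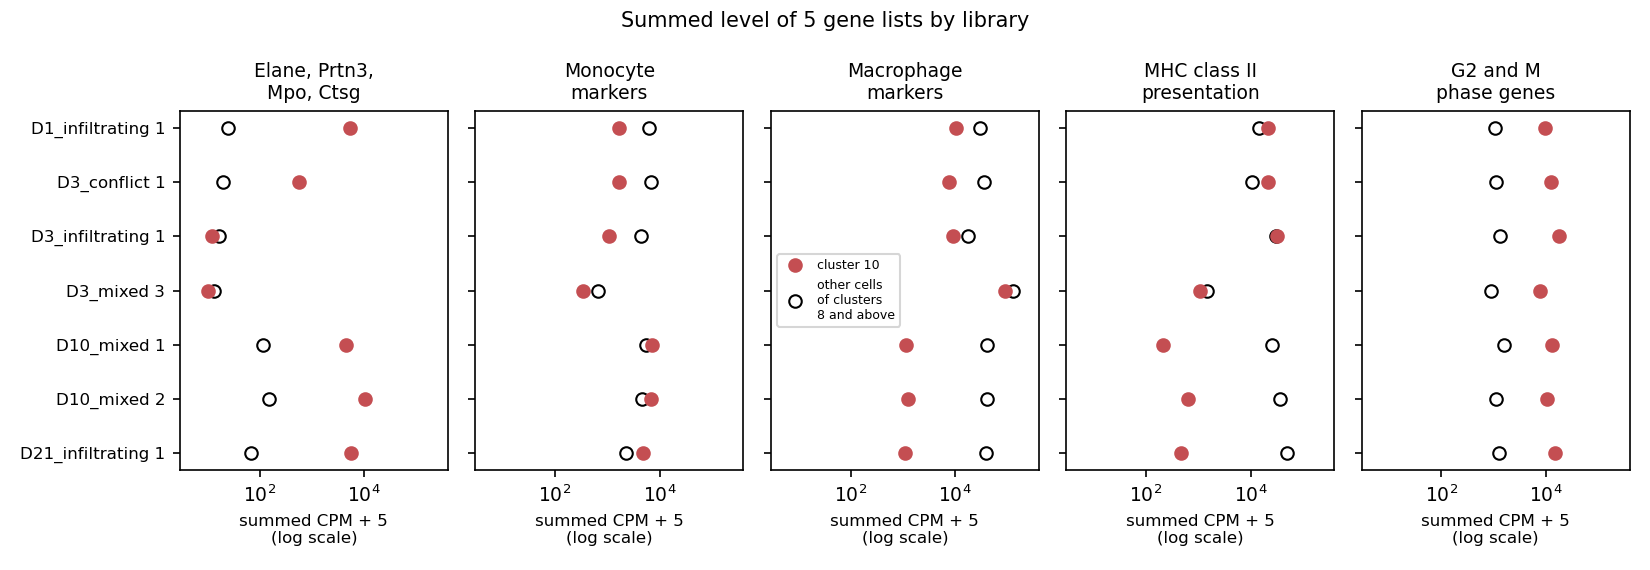
Summed CPM (5 added, log axes) of the 4 granule genes and of 4 marker lists in cluster 10 (filled) and in the other cells of clusters 8 and above (open), for 7 libraries. Macrophage markers fall from 90511 CPM in D3 mixed 3 to 1095 to 1258 in the late cluster 10 cells, while the G2/M list is high in cluster 10 in all 7.

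Likeness outside the cell cycle genes differed between libraries. Over 5819 genes outside the cycle lists, the cluster 10 sum of D3 mixed 3 correlated most with cluster 9 (r = 0.75) and next with cluster 8 (0.48). Those of D3 conflict 1 and D3 infiltrating 1 were nearest to cluster 15 (0.64 and 0.68), as was D1 infiltrating 1 (0.43). In the late libraries, clusters 13 and 15 were nearly level, at 0.42 and 0.41 in D10 mixed 1, 0.40 and 0.38 in D10 mixed 2, and 0.44 and 0.38 in D21 infiltrating 1. By single cells, 65 of 182 were nearest to cluster 9, 50 to cluster 15, 33 to cluster 8 and 28 to cluster 13. All 65 nearest to cluster 9 were cells of D3 mixed 3, and without that library 46 of 75 were nearest to cluster 15, 20 to cluster 13, 8 to cluster 8 and 0 to cluster 9. The 29 granule-bearing cells were nearest to cluster 13 (16) or cluster 15 (13). Points are genes of shared libraries, and the r values are descriptions.

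Markers of stem cells and of later granules were at 0 in part, and the rest divided in direction. Of the stem and multipotent progenitor markers, Gata2, Mecom and Mycn had no UMI in cluster 10 in any of the 7 libraries. Others were found: Sox4 was at 135, 19.8 and 56.6 CPM in the late libraries, the cytokine receptor gene Flt3 at 64.5, 11.9 and 36.6 (and at 50.7 in D3 infiltrating 1), and Hoxa9 at 18.4, 5.95 and 0. At least 2-fold higher than in the other cells were 2 of 4 list genes in D10 mixed 1, 0 of 5 in D10 mixed 2 and 1 of 4 in D21 infiltrating 1, and at least 2-fold lower were 0 of 4, 4 of 5 and 1 of 4 (17.1%, 17.4% and 15.9% of all genes were). Cd34 was at 114, 13.9 and 46.6 CPM in D10 mixed 1, D10 mixed 2 and D21 infiltrating 1 but at 188 in D3 infiltrating 1, and Kit, the stem cell factor receptor, was at 0 to 35.7 CPM over the 7. Of the 12 specific and gelatinase granule genes, Camp, Ltf, Ngp, Cd177 and Olfm4 had 0 UMIs in all 7, while Lcn2 (lipocalin 2) was at 129, 31.7 and 0 CPM and Fcnb at 6.14, 21.8 and 0 in the 3 late libraries. Of the genes of this list with enough counts, 1 of 6, 2 of 5 and 0 of 2 were at least 2-fold higher than in the other cells in those libraries (18.4%, 19.8% and 15.9% of all genes were), and 2 of 6, 3 of 5 and 1 of 2 were at least 2-fold lower. In the edgeR comparison of late with D3 cells 0 of 3 passed, all 3 above 0. Cebpe and Gfi1, factors of the neutrophil line, reached at most 12.3 and 1.98 CPM. Irf8, a factor of the monocyte line, was at 430.0, 260.0 and 576 CPM late and at 79.7 to 155 early. Myb, a factor of proliferating progenitors, was at 67.6, 75.4 and 43.3 CPM late, and at 35.7 or less early. Ms4a3, a marker of granulocyte-monocyte progenitors, was at 76.8, 405 and 13.3 CPM late, at 71.5 in D1 infiltrating 1, and at 0 in D3 infiltrating 1 and D3 mixed 3.

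Markers of other cell types were not all absent and differed by library. Microglia markers summed to 846, 994 and 1507 CPM in cluster 10 of D1 infiltrating 1, D3 conflict 1 and D3 infiltrating 1. The other infiltrating cells there had 426, 481 and 826. In D3 mixed 3 the values were 833 against 1048, and late they were 27.6 to 86.5 against 1284 to 2744. Lymphocyte markers summed to 323 to 396 CPM in the late cluster 10 cells, against 135 to 225 in the other late cells. Most of this was Ighm, the mu heavy chain gene, at 260.0 to 336 CPM. Cd79a and Cd3e were at 0. Mature neutrophil markers summed to 366, 41.7 and 26.6 CPM in D10 mixed 1, D10 mixed 2 and D21 infiltrating 1, against 97.4, 104 and 78.5 in the other cells. Late erythroid and megakaryocyte markers summed to at most 19.8, and neural and vascular markers to 29.8 to 36.9. Their part in the late profile was not tested. Cx3cr1, the gene the sort follows, was at 9.21, 11.9 and 23.3 CPM in the late cluster 10 cells of D10 mixed 1, D10 mixed 2 and D21 infiltrating 1, and at 43.0, 31.6 and 284 in the other late cells. Ribosome biogenesis and Myc-related genes, which build new ribosomes in growing cells, were at least 2-fold higher in 13 of 15 in D10 mixed 1 (18.4% of all genes were) and 11 of 13 in D10 mixed 2 (19.8%), but in 2 of 13 in D21 infiltrating 1, near that library's 15.9%.

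The late and D3 cluster 10 cells were compared directly with edgeR's quasi-likelihood test on counts summed per library, with D10 mixed 1, D10 mixed 2 and D21 infiltrating 1 (8, 12 and 9 cells) against D3 infiltrating 1 and D3 mixed 3 (14 and 107 cells), all male. Of 4729 genes tested, 74 (1.56%) were higher late and 168 (3.55%) lower late, at an adjusted p under 0.05. The granule genes rose most. Elane had 0 UMIs in the D3 cells and 1529.97 CPM over the late cells, at least 720-fold higher by a floor of 3 counts over the group (edgeR adjusted p = 0.00286). Mpo was at least 477-fold higher (edgeR adjusted p = 0.00111). Without D3 mixed 3, whose UMIs set most of that floor, the bounds were 141-fold and 93.3-fold. Prtn3 rose by 9.63 on the log2 scale (SE 0.67, edgeR adjusted p = 0.00111) and Ctsg by 8.29 (SE 0.77, edgeR adjusted p = 0.00177). All 4 were higher in 3 of 3 late libraries than in both D3 libraries.

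Of the azurophil list 5 of 8 members rose, the fifth being Serpinb1a, an inhibitor of these proteases (log2 5.58, SE 0.53, edgeR adjusted p = 0.00177). One fell, Cd63, a membrane protein of these granules and of lysosomes. Ctsc, which activates the granule proteases, and Srgn, their storage proteoglycan, had log2 differences of −0.62 and −0.74 and did not pass. Of the progenitor markers 6 of 10 tested rose, namely the 4 granule genes, Myb (log2 5.83, SE 0.75, edgeR adjusted p = 0.00461) and Hp. Ms4a3 did not pass (edgeR adjusted p = 0.0705). The azurophil list had a median log2 difference of 6.94, and the progenitor list 7.06, or 6.22 with genes at 0 UMIs in one group set to their bound. The median over all 4729 genes was −0.05. Both lists were chosen with results of these data in view.

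Monocyte genes rose as well, with 4 of 9 past the test, 9 of 9 above 0 and a list median of 4.71. Ly6c2, the surface marker of inflammatory monocytes, was at 1192, 1326 and 1274 CPM late and at 0 and 5.29 at D3, and rose by 7.99 (SE 0.65, edgeR adjusted p = 0.00144). Plac8 and Hp, the haptoglobin gene, were among the others that rose. Dmkn and C3 were also among the 8 largest rises, each with 0 UMIs at D3, and were at least 27.5-fold and 22.5-fold higher (5.38-fold and 4.4-fold without D3 mixed 3). Ighm and Cd79b rose too, which were 2 of 2 lymphocyte genes tested. Without D21 infiltrating 1, Dmkn, C3, Plac8, Ighm and Cd79b did not pass (edgeR adjusted p from 0.0553 to 0.145). Plac8, Ighm and Cd79b did not pass without D10 mixed 2 either, nor Ighm without D10 mixed 1, nor Plac8 with D3 conflict 1 added (edgeR adjusted p from 0.0517 to 0.164). Ly6c2 and Hp passed in all 13 alternatives.

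Macrophage genes were among those that fell. Of 9 macrophage markers tested, 7 fell, with a list median of −9.57 that is the same with the genes at 0 UMIs set to their bound. Spp1 was at 3748 and 44176 CPM in D3 infiltrating 1 and D3 mixed 3, and Apoe, a lipid carrier of macrophages, at 1383 and 16474. C1qb and C1qa, of complement C1q, were at 1525 and 5792 and at 311 and 3748. All 4 had 0 UMIs in the late cells, which made them at least 13661-fold, 5093-fold, 1867-fold and 1158-fold lower by the same floor (edgeR adjusted p from 0.00356 to 0.0158). Most of these D3 UMIs came from D3 mixed 3. Without it, the bounds were 1412-fold for Spp1, 521-fold for Apoe, 574-fold for C1qb and 117-fold for C1qa. Cd63, Timp2, AA467197 and Ms4a7 completed the 8 largest falls, also with 0 UMIs late. Without D21 infiltrating 1, Spp1, Apoe and C1qa did not pass (edgeR adjusted p = 0.0583, 0.0685 and 0.0964), while C1qb did (0.0424). Cd63, Timp2 and Ms4a7 did not pass without it or without D10 mixed 2 (edgeR adjusted p from 0.0548 to 0.151). The other late infiltrating cells held Apoe at 27742 CPM or more, so these libraries had the transcript outside cluster 10. Of the MHC class II genes 2 of 6 fell, H2-Ab1 and H2-Eb1. H2-Ab1 did not pass when any 1 of the 3 late libraries was left out (edgeR adjusted p from 0.052 to 0.177), nor H2-Eb1 without D10 mixed 2 or D21 infiltrating 1 (0.0874 and 0.143).

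Few genes of the cell cycle lists passed between late and D3 cells (of all genes, 1.56% were higher and 3.55% lower). Of 50 G2/M genes, 0 passed, of 40 S phase genes 1 rose (Cdca7, which did not pass when any 1 of the 3 late libraries was left out, edgeR adjusted p from 0.052 to 0.0833), and of 107 further cell cycle genes 2 rose and 1 fell. Without D3 mixed 3, where 3.99% of 5695 genes were higher late and 5% lower, 6 of 41 S phase genes rose and 4 of 53 G2/M genes fell. Mki67 was then lower late (log2 −1.08, edgeR adjusted p = 0.0464). In that fit 6 of 8 azurophil genes, 6 of 10 progenitor markers and 5 of 9 monocyte markers rose, 6 of 9 macrophage markers fell and 1 rose, and 6 of 7 MHC class II genes fell. The macrophage marker Fabp5 turned from a log2 difference of −4.71 that did not pass to a rise against 0 UMIs in D3 infiltrating 1, at least 18.5-fold by the floor (edgeR adjusted p = 0.00516). Of 6 NADPH oxidase genes, which make superoxide in phagocytes, 0 passed, and of 13 ribosome biogenesis genes 1 rose. Adding D3 conflict 1 gave Elane a log2 difference of 4.42 that did not pass (edgeR adjusted p = 0.0843), and that library's single granule-bearing cell held 216 of its 217 granule UMIs. With it, the log2 differences of Prtn3, Mpo and Ctsg were 5.24, 6.37 and 5.58. These 3 genes kept an adjusted p under 0.05 in all 13 alternatives. In the alternative with pool as a term, the difference came from D21 infiltrating 1 against D3 mixed 3 alone, 1 library each. Day, sort and pool differ between these 5 libraries and cannot be fully told apart, and leaving out D21 infiltrating 1 left 15 genes higher and 22 lower.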

How the data were processed

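The deposited files were raw counts (whole UMI counts per gene and cell, 25 libraries, 22439 genes) and the authors' cell annotation with cluster numbers, used as deposited. Per the submitters' processing notes, Cell Ranger 3.1.0 and GRCm38 (mm10) were used; how the clusters were made is not given in the sources used here. The pooled matrices of the whole series were not used. Cluster 10 counts were summed per library. The deposited percent of mitochondrial UMIs per cell, computed by the authors, was read as a check and had medians of 0.155 to 1.75% in the cluster 10 cells of the libraries. No doublet caller was run and no free RNA was subtracted. Whole libraries held 486649 to 33204422 UMIs, and cluster 10 cells 2628 to 82928.

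Shares were compared by exact 2-sided permutation of libraries. Genes were tested with edgeR 4.0.16 (glmQLFit, TMM, filterByExpr, R 4.3.3), and SE is the log2 difference divided by the root of F. Fits over libraries with at least 20 members were planned. Only D3 mixed 3 had that many, so a minimum of 5 was chosen after seeing the data, also for the ratios within libraries. DESeq2 1.42.0 was an alternative. The scripts were checked on simulated data. Python 3.11.15 and scipy 1.17.1 were used, and promoter sequences came from RefSeq (GRCm38.p6).

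Named genes were up to 8 per direction by log2 change among those past the threshold and, within libraries, the 15 highest ratios, the 15 highest outside the cycle lists and the 10 lowest, plus genes of the fixed lists. The members and lists were chosen with earlier results of these data known. Some genes that met this rule are not reported here.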

Additional observations from a re-analysis of the deposited data

Results flagged for a closer look

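Among the 7 infiltrating libraries, D21 infiltrating 1 had 5.81% of all its cells in cluster 10, and the other 6 had 0 to 1.09%. Its distance from the others exceeded the 95% limit of Dixon's test, which chance passes in about 1 of 20 groups, and 7 groups were examined. That library was the smallest of the series, with 155 cells, of which 9 were in cluster 10.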

How the results depend on the processing

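The late against early difference in the share of cluster 10 turned to −0.195 percentage points (exact permutation p = 1, 1 late library) where at least 200 cells in clusters 8 and above were asked for. It lost its unadjusted threshold with all cells as denominator (1.56) and without D10 mixed 2 (4.25) or D21 infiltrating 1 (7.16), and leaving out 1 library gave 4.25 to 11.1. With at least 20 cells asked for, chosen after seeing the data, it was 10.5 (exact permutation p = 0.00599, n = 5 and 9). Infiltrating against resident had an unadjusted exact permutation p of 0.0455 without D21 infiltrating 1 (0.374), with a range of 0.374 to 1.34. The share with granule UMIs gave 73.8 to 83.8 points with 1 library left out, and 77.3 with D3 conflict 1. It was 56.9 over libraries with at least 2 members and 35.9 over those with at least 1 (exact permutation p = 0.107 and 0.127).

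Genes 2-fold higher, higher outside the cycle lists and lower in every library numbered 175, 39 and 13. They were 368, 187 and 63 with at least 20 members (1 library), 244, 71 and 24 with at least 10, 116, 17 and 6 against other cells with cycle UMIs, and 27 were lower with 1 CPM added. Leaving out 1 library gave 175 to 224, 39 to 55 and 13 to 116. For the D10 and D21 against D3 test, 74 higher and 168 lower became 224 and 550 with no filter, 122 and 235 with D3 conflict 1, 326 and 430 with pool (the SLX number) as a term, which sets D21 infiltrating 1 against D3 mixed 3 alone with 1 residual degree of freedom, and 105 and 197 with DESeq2. Leaving out 1 library gave 15 to 310 and 22 to 583. With a single D3 library left, its spread was taken from the late libraries. The causes were not tested.

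No paired analysis was possible because the libraries compared shared fewer than 2 replicate numbers given by the labels (the numbers of the infiltrating libraries and of the D2 mixed libraries only follow accession order). The planned gene tests over libraries with at least 20 members were not run, since 1 library had that many. Few cells per library limit all values.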
